A study of Mus musculus with 8 samples.

Results

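The livers described here came from mice on a high-fat diet (HFD) and compare 2 libraries of *Rora*-deleted liver with 2 libraries of floxed control liver. Genes were taken as members where FPKM (fragment counts corrected for transcript length and library size) was above 1 in all 4 libraries, which held for 10107 of the 38283 genes in the deposited table. The 4 libraries belong to a set of 8, in which the same genotypes were also sequenced on control diet (CD). All mice were of C57BL/6 background, carried loxP sites around exons 4 and 5 of *Rora* (RORαf/f) and, per the study's methods, were fed the HFD, with 60% of kcal from fat, or the CD for 10 weeks from 8 weeks of age. The RORαLKO mice (Alb-cre;RORa f/f) also carried Cre recombinase under the albumin promoter, and the study describes the deletion as specific to liver. Each library pooled the livers of 2 mice, and 4 mice stand behind each group.

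RORα is a nuclear receptor that binds DNA as a monomer at AGGTCA motifs with an A/T-rich flank, elements that it shares with the repressors REV-ERBα and REV-ERBβ. Through these elements the receptors tie the circadian clock to metabolism in liver. In a fatty liver, PPAR nuclear receptors, the SREBP proteins that INSIG proteins hold in the endoplasmic reticulum, and the clock all act on genes of lipid storage, oxidation and synthesis.

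*Rora* itself (chromosome 9 of GRCm38, 68653786 to 69388246, plus strand) was read first. Its FPKM was 7.30 and 8.02 in the LKO-labelled HFD libraries and 7.56 and 7.86 in the f/f-labelled HFD libraries. The groups overlapped, with a log2 difference of 0.01 ± 0.07 (standard error; limma with p-values adjusted after Benjamini and Hochberg, adjusted p = 0.974). FPKM covers the whole gene and does not isolate exons 4 and 5, so this value does not check the labels. Each direction below rests on the labels, and the libraries are called LKO-labelled and f/f-labelled.

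Differences are LKO-labelled minus f/f-labelled means of log2(FPKM + 1) after quantile normalization, a scale that understates the differences of genes with low FPKM. Libraries are called separated where, on that scale, both of one group lie on the same side of both of the other. For one gene, 2 libraries against 2 allow no p below 0.333 in a two-sided exact permutation. The p-values measure only the spread between libraries of pooled livers. Among the members, 4367 had separated libraries (43.2%), 2206 with both LKO-labelled libraries higher (21.8%) and 2161 with both lower (21.4%), so that separation alone singles out no gene. Separation together with a log2 difference of at least 0.5 was met by 160 genes higher (1.58%) and 101 genes lower (0.999%). In limma the unadjusted p was under 0.05 for 590 members higher (5.84%) and 435 lower (4.3%). The adjusted p was under 0.05 for 2 members (0.0198%), *Insig2* and *Lpin1*, and for 5 of all 11634 genes tested (0.043%). The other 3, *Snord118*, *Gm22988* and ENSMUSG00000093165, are not members. They were listed at 0 in both LKO-labelled HFD libraries and in every CD library of either genotype, and above 0 only in the f/f-labelled HFD libraries. "Rose" and "fell" are kept for *Insig2* and *Lpin1*.

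Sequence is shown for genes near the top of the comparison whose proximal promoter held a clock motif or AGGTCA, searched without an A/T-rich flank. These are *Lpin1*, *Upp2* and *Cela1*, which had adjusted p below 0.1 in limma, and *Ciart* and *Per3*, the core clock genes with the lowest differences. Each line gives the 250 bases upstream of a RefSeq transcript start on GRCm38.p6, 5′ to 3′ on the strand of the gene. Capitals mark AGGTCA in *Lpin1*, *Upp2* and *Cela1*, CACGTG (the E-box bound by CLOCK and BMAL1) in *Ciart*, and TTATGTAA (the D-box bound by DBP, TEF and HLF) in *Per3*.
Lpin1, chr12:16610967-16611216, minus strand: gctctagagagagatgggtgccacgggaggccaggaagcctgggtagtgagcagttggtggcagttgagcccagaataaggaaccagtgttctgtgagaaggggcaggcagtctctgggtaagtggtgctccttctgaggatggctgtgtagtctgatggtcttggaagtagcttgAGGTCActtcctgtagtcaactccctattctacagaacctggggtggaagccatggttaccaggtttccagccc
Upp2, chr2:58754934-58755183, plus strand: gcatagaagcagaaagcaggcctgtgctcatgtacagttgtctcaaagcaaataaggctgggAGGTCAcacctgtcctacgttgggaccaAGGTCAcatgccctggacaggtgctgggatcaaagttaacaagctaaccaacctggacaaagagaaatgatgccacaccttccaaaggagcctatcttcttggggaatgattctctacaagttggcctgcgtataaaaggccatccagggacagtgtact
Cela1, chr15:100687921-100688170, minus strand: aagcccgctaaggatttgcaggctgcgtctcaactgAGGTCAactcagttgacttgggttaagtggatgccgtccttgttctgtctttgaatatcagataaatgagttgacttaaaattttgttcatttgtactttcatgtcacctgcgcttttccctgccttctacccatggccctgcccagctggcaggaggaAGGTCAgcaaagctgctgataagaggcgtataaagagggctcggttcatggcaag
Ciart, chr3:95882229-95882478, minus strand: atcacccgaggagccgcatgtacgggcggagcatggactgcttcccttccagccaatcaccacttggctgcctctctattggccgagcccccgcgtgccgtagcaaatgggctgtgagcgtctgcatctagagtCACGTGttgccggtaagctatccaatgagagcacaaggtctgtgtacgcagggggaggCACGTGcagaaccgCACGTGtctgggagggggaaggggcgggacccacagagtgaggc
Per3, chr4:151044666-151044915, minus strand: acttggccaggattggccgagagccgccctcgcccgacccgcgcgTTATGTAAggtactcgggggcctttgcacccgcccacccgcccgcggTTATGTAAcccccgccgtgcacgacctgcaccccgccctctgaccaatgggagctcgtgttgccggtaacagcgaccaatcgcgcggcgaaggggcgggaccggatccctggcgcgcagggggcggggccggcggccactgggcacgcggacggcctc
Counted back from the transcript start, AGGTCA began at base -74 in *Lpin1*, at -188 and -160 in *Upp2* and at -214 and -55 in *Cela1*. CACGTG began at -116, -58 and -44 in *Ciart*, and TTATGTAA at -205 and -158 in *Per3*. The other RefSeq start of *Upp2*, which lies upstream, and the 3 starts of *Insig2* had none of the 3 motifs in this window. Both strands were searched. *Egfr*, with a limma adjusted p of 0.0525, and *Dbp*, *Usp2* and *Por* also had none. RefSeq windows were matched by symbol for 7871 of the 10107 members. AGGTCA was present in 14% of all 32851 windows and in 11.6% of the 10120 windows of members. It was present in 18.4% of the 141 windows of separated genes at least 0.5 higher and in 17.4% of the 86 windows of those at least 0.5 lower. CACGTG was in 6.02% of all windows, 8.6% of those of members, 8.51% of the higher set and 14% of the lower set. TTATGTAA was in 0.819%, 0.464%, 0.0% and 2.33%. A match describes letters in a window and is no binding site, and AGGTCA without its flank is not a full ROR element.

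Across the members the difference was small for most genes. The median was -0.0028 on the log2 scale, 5% of members lay below -0.274 and 5% above 0.318, and 4975 members were above and 5131 below 0. Between the 2 libraries of a group, the median absolute log2 difference was 0.101 in the LKO-labelled and 0.113 in the f/f-labelled group. Across members Spearman's rho was 0.9885 and 0.9868 within the groups and 0.9829 to 0.986 between them, a description over genes that share each library. Of the 261 separated genes at or past 0.5, 20 in each direction reached 1, and the deposited FPKM of all 261 also did not overlap. Among members with a mean FPKM over 100 the share at least 0.5 higher was 3.34% (23 of 688), against 1.6% below 5 (56 of 3498), 1.34% from 5 to 20 and 1.43% from 20 to 100. Between 10587 and 10706 genes had FPKM above 1 in each of the 8 libraries. At the edge of the member rule, *Trpm2* was inside with FPKM of 1.20, 1.29, 1.33 and 1.00, and *Ccnj* was outside with 0.999999 in the first LKO-labelled library and 1.30, 1.09 and 1.23 in the others. A further 70 genes were above 1 in both LKO-labelled and in neither f/f-labelled library, and 47 the reverse.

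**Figure D1:**
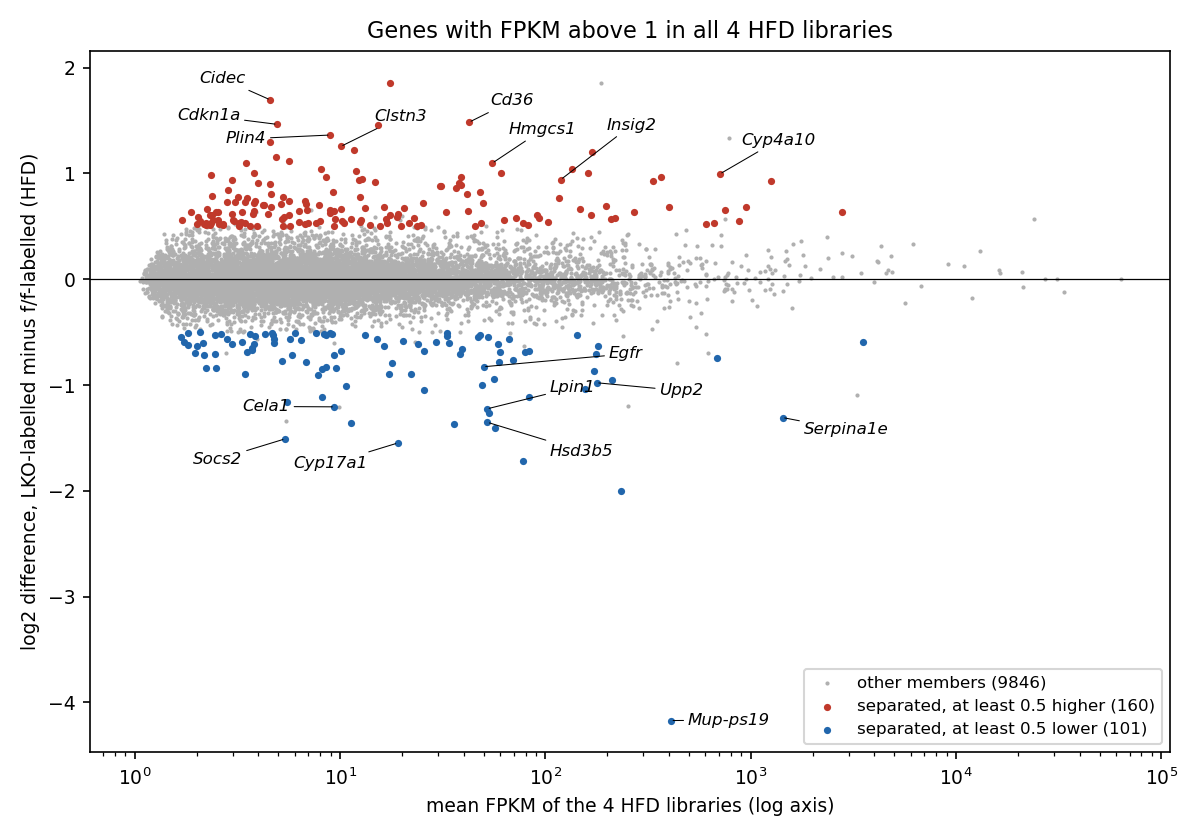
Log2 difference (LKO-labelled minus f/f-labelled, HFD, vertical axis) against the mean FPKM of the 4 HFD libraries (horizontal log axis) for 10107 genes. Red points are the 160 separated genes at least 0.5 higher, blue points the 101 at least 0.5 lower and grey points the other 9846 members; most points lie close to 0 at every level.

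*Insig2* encodes an endoplasmic reticulum protein that retains the SREBP chaperone SCAP and so restrains the processing of SREBPs. It lies on chromosome 1 of GRCm38 (121304353 to 121332589, minus strand). FPKM was 157 and 156 in the LKO-labelled libraries and 82.4 and 81.0 in the f/f-labelled libraries on HFD. The libraries of a group were nearly equal and the groups were far apart, a ratio of 1.91. *Insig2* rose by 0.94 ± 0.08 on the log2 scale (standard error, n = 2 libraries per group, adjusted p = 0.029 in limma). On CD its FPKM was 113 and 99.97 against 66.5 and 67.9, a log2 difference of 0.65. The size held in 16 alternative analyses (0.91 to 0.98), whereas the limma call was lost in 8 of them, which were all 4 single HFD libraries left out (adjusted p = 0.145 and 0.0751 without LKO-labelled library 1 and 2, 0.0807 and 0.114 without f/f-labelled library 1 and 2), either f/f-labelled CD library left out (0.131, 0.133), no mean-variance trend (0.0743) and the HFD libraries fitted alone (0.0934).

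*Lpin1* encodes a phosphatidate phosphatase that makes diacylglycerol for triglyceride synthesis and also acts in the nucleus as a coactivator with PPAR family receptors. It lies on chromosome 12 (16535669 to 16610966, minus strand). FPKM on HFD was 27.6 and 34.2 in the LKO-labelled libraries and 68.8 and 77.4 in the f/f-labelled libraries. Both LKO-labelled libraries were well below both others, and the f/f-labelled mean was 2.37 times the LKO-labelled mean. *Lpin1* fell by 1.22 ± 0.12 on the log2 scale (standard error, n = 2 libraries per group, limma adjusted p = 0.046). On CD it stood at 17.5 and 18.8 against 68.5 and 77.3, a log2 difference of -1.91 (limma adjusted p = 0.0063). The HFD value stayed between -1.36 and -1.09 in all 16 alternatives. Its call was lost in 10 of them, namely without normalization (limma adjusted p = 0.0512), without the trend (0.0934), with the HFD libraries alone (0.195) and with any library other than the second LKO-labelled HFD library left out (0.0846 to 0.179).

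Several genes lay close to the threshold. *Egfr*, the receptor for epidermal growth factor that is abundant on hepatocytes, had FPKM of 33.3 and 37.6 in the LKO-labelled and 61.4 and 67.4 in the f/f-labelled libraries, a log2 difference of -0.83 ± 0.08 (standard error, limma adjusted p = 0.0525). *Cela1*, an elastase-family protease, had 4.62 and 5.88 against 14 and 12.9, a difference of -1.21 ± 0.13 (limma adjusted p = 0.065). *Upp2*, a uridine phosphorylase with rhythmic liver expression, had 105 and 136 against 230 and 240, a difference of -0.98 ± 0.11 (limma adjusted p = 0.087). In all 3 the LKO-labelled libraries were below both f/f-labelled ones by much more than the gap within a group. On CD the log2 difference was 0.09 for *Egfr*, -0.78 for *Cela1* and -0.38 for *Upp2*.

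**Figure D2:**
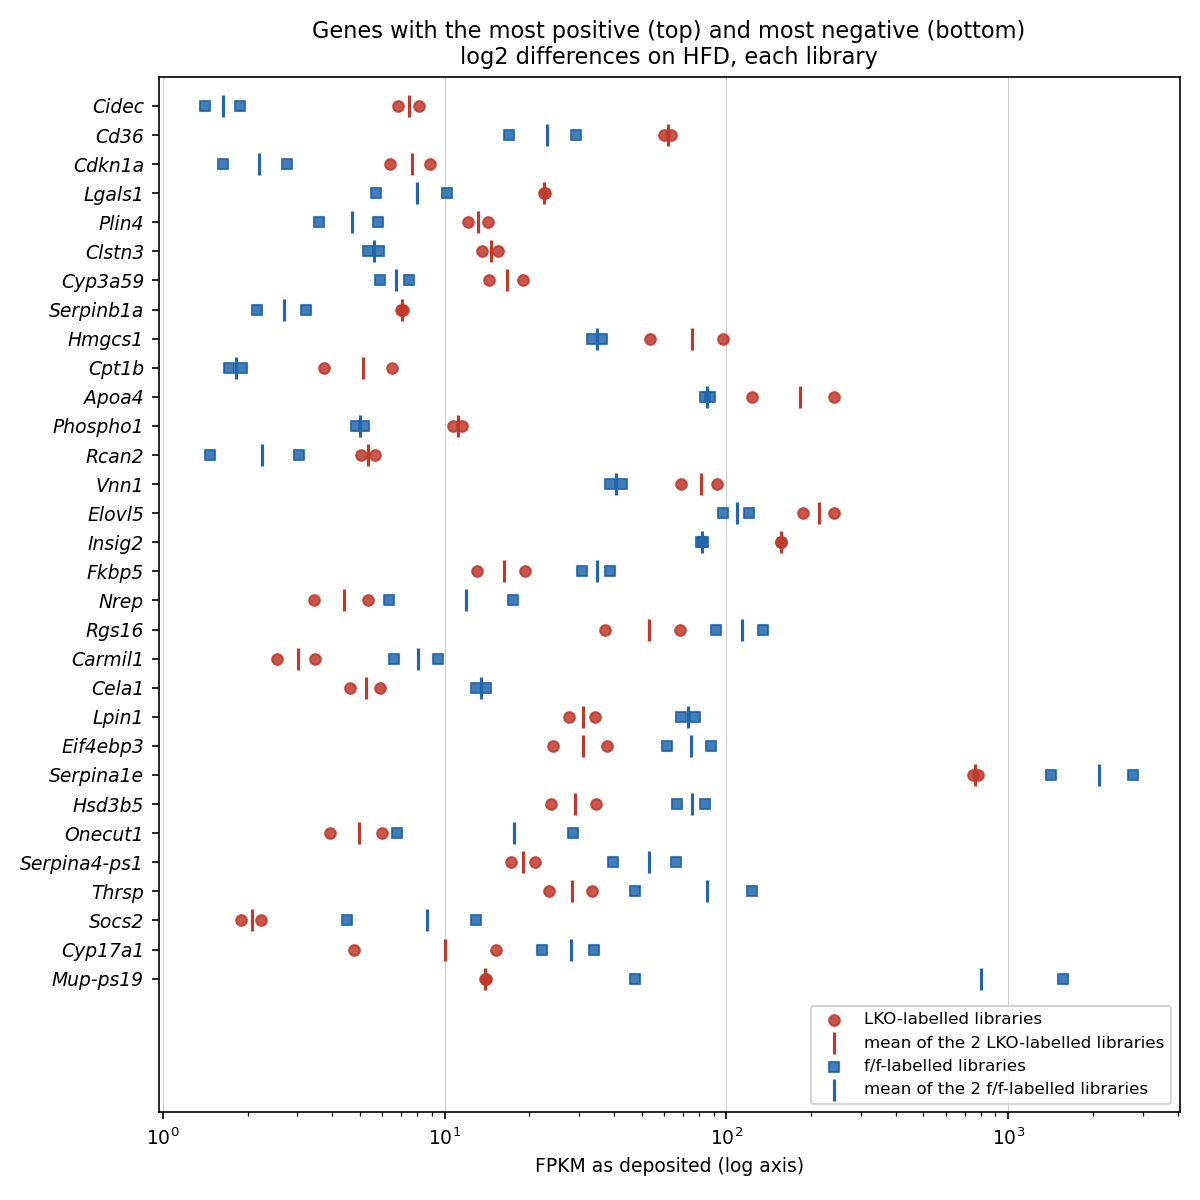
Deposited FPKM (horizontal log axis) of each HFD library for *Insig2* and the 15 most positive and 15 most negative differences among separated genes with a symbol and an unadjusted limma p under 0.05. Red circles are LKO-labelled and blue squares f/f-labelled libraries, with a bar at each mean of 2; *Insig2* sits at 157 and 156 against 82.4 and 81.0, while *Mup-ps19* has 1560 and 47.5 in the f/f-labelled group.

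The highest difference among separated genes with a symbol belonged to *Cidec*, which promotes fusion and growth of lipid droplets. Its FPKM was 8.15 and 6.83 in the LKO-labelled libraries and 1.412 and 1.87 in the f/f-labelled ones, a ratio of means of 4.56 and a log2 difference of 1.70 ± 0.26 (standard error, limma adjusted p = 0.144). *Cd36*, a fatty acid translocase, had 63.7 and 60.2 against 17.0 and 29.3, a difference of 1.49 ± 0.28. *Lgals1*, galectin-1, had 22.5 and 22.8 against 5.73 and 10.2 (1.45). In *Cd36* and *Lgals1* the LKO-labelled libraries were alike and more of the spread lay between the f/f-labelled libraries. *Plin4*, a perilipin of the droplet coat, had 12.1 and 14.2 against 3.57 and 5.79 (1.36), and *Clstn3*, a calsyntenin, 13.6 and 15.5 against 5.35 and 5.86 (1.26). *Phospho1*, a phosphatase acting on phosphocholine and phosphoethanolamine, had 10.7 and 11.5 against 5.17 and 4.84 (1.04), and *Vnn1*, a pantetheinase and known PPAR target, 69.2 and 92.9 against 42.5 and 38.7 (1.00). In each of these 4 the groups lay apart by more than the gap within either. *Serpinb1a*, an inhibitor of neutrophil serine proteases, was at 7.14 and 6.98 against 2.15 and 3.23 (1.15), and *Rcan2*, a regulator of calcineurin, at 5.04 and 5.68 against 1.47 and 3.05 (1.01, and 0.63 without f/f-labelled library 1). The lowest limma adjusted p among the genes of this paragraph was 0.106, for *Clstn3*.

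At the lower end, *Hsd3b5*, a male-biased steroid dehydrogenase, had FPKM of 23.8 and 34.3 against 84.1 and 66.5 (-1.35 ± 0.18, limma adjusted p = 0.142). *Cyp17a1*, a steroid hydroxylase and lyase, had 15.2 and 4.76 against 34.0 and 22.2 (-1.55, and -0.78 without LKO-labelled library 2). *Fkbp5*, a cochaperone induced by glucocorticoids, had 13.1 and 19.3 against 38.8 and 30.8 (-1.05), while the list of glucocorticoid targets had a median of -0.03 over 17 members with 2 at least 0.5 higher and 2 lower. In the 3 named genes both LKO-labelled libraries were the lowest of the 4. *Carmil1*, a regulator of actin capping, had 2.54 and 3.47 against 9.48 and 6.63 (-1.16). *Rgs16*, a regulator of G-protein signaling, had 68.7 and 37.2 against 135 and 91.7 (-1.11, and -0.65 without LKO-labelled library 2). *Eif4ebp3*, a binding protein of the translation factor eIF4E, had 24.3 and 37.6 against 61.5 and 88.5 (-1.26), and *Nrep* 5.36 and 3.44 against 6.33 and 17.5 (-1.11). For *Nrep* the second f/f-labelled library carried most of the distance, and the difference was -0.44 without it. In *Mup-ps19*, a major urinary protein pseudogene, f/f-labelled library 1 stood apart instead, with 13.9 and 14 against 1560 and 47.5. Its log2 difference was -4.17, -1.68 without f/f-labelled library 1 and -6.67 without f/f-labelled library 2. *Serpina1e*, an alpha-1-antitrypsin copy, had 778 and 751 against 2779 and 1413 (-1.31, and -0.77 without f/f-labelled library 1), and *Serpina4-ps1* 17.2 and 20.9 against 39.5 and 66.4 (-1.37). Cufflinks divides reads between near-identical copies, so values of these last 3 genes are uncertain. Outside the naming rule, and chosen after their values were seen, *Cisd3* stood at -2.001 with 48.4 and 54.4 against 777 and 57.1, where a single library carried the distance, and ENSMUSG00000092215, which has no symbol, at 1.85 with 27.9 and 28.1 against 8.19 and 6.12.

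Gene lists, compiled with earlier results of these data known, were described by counts and medians beside the values for all members. The median of all members was -0.0028, 43.2% of them were separated, 1.58% were separated and at least 0.5 higher, and 0.999% at least 0.5 lower. No list was tested as a set. FPKM measures RNA from whole liver, in which fewer cells of a type and less RNA per cell cannot be told apart.

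**Figure D3:**
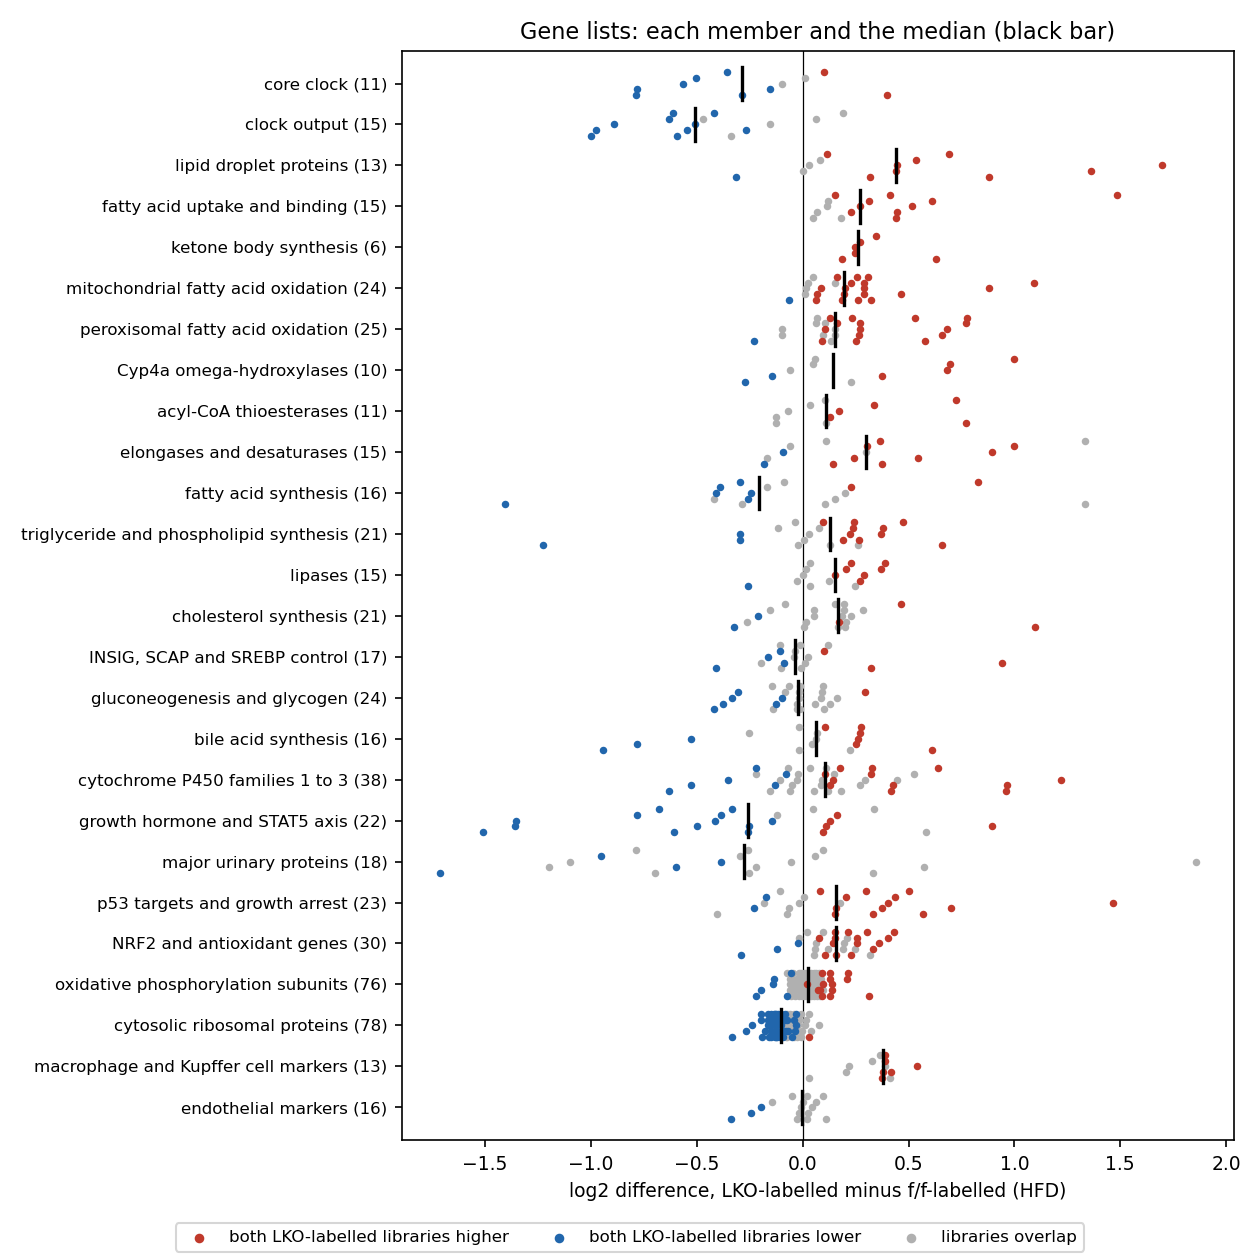
Log2 difference (LKO-labelled minus f/f-labelled, HFD, horizontal axis) of each member of 26 gene lists, with the number of members in brackets. Red and blue points have both LKO-labelled libraries higher or lower, grey points overlap and the black bar is the list median; clock output genes lie furthest left (median -0.51) and lipid droplet proteins furthest right (0.44).

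Clock genes lay below 0 in most cases. Of 13 listed core clock genes, *Arntl*, which encodes BMAL1, and *Npas2* were not members and are not counted. Among the 11 core clock members, 7 were separated lower and 2 higher, 4 were at least 0.5 lower and the median was -0.29. *Ciart*, a repressor of the clock, had FPKM of 11.9 and 13.4 in the LKO-labelled and 25.9 and 20.4 in the f/f-labelled libraries (-0.79 ± 0.15). *Per3* had 3.99 and 5.55 against 8.30 and 9.48 (-0.78), and *Per2* 3.52 and 3.69 against 5.90 and 5.83 (-0.57). In the period genes, which repress CLOCK and BMAL1, the groups were clearly apart, as shown most tightly by *Per2*. *Cry1*, another repressor, had 1.23 and 1.44 against 1.90 and 2.70 (-0.50, and -0.31 without f/f-labelled library 2). The 2 members separated in the other direction, named because the count is low, were *Clock*, the activator, at 0.40 and *Csnk1e*, a kinase of period proteins, at 0.10. *Nr1d2*, which encodes REV-ERBβ, was separated lower at -0.36, whereas *Nr1d1*, which encodes REV-ERBα, overlapped with 55.5 and 64.0 against 65.5 and 48.3. The lowest limma adjusted p among core clock genes was 0.205.

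Output genes of the clock were lower by more. Of 15 members 10 were separated, all of them lower, 8 were at least 0.5 lower and the median was -0.51. *Dbp*, a PAR bZIP factor that acts on D-boxes, had FPKM of 28.5 and 36.2 against 72.3 and 58.5, a log2 difference of -1.0 ± 0.16 (limma adjusted p = 0.144). *Usp2*, a ubiquitin protease under clock control, had 9.64 and 14 against 22.8 and 22.7 (-0.89). *Por*, the reductase that feeds electrons to microsomal cytochromes P450, had 130 and 149 against 212 and 231 (-0.63). With *Upp2*, described above, these 4 had no overlap between the groups. *Wee1*, *Bhlhe40*, *Tef* and *Avpr1a* completed the 8, at -0.61, -0.59, -0.55 and -0.51. On CD the medians were -0.05 for the core clock and -0.27 for the output genes. The study's methods state no time of day at which these livers were taken. The part of sampling time in the differences of clock genes was not tested.

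Lipid droplet proteins, which coat and shape stored triglyceride, were mostly higher. Of 13 members 9 were separated higher and 1 lower, 5 were at least 0.5 higher and the median was 0.44 (0.25 on CD). *Fitm1*, which helps droplets bud from the endoplasmic reticulum, had FPKM of 36.2 and 43.6 in the LKO-labelled and 18.7 and 24.4 in the f/f-labelled libraries (0.88 ± 0.18). *Plin2*, the main perilipin of fatty hepatocytes, had 240 and 246 against 154 and 152 (0.69). These groups were apart, and the f/f-labelled values of *Plin2* were nearly equal. *Cidec* and *Plin4* are given above, and *Plin5*, a perilipin at the contact of droplets and mitochondria, stood at 0.54. The member separated lower was *Hilpda*, an inhibitor of the lipase ATGL, at -0.31, against 0.41 on CD. The lowest limma adjusted p of the list was 0.144.

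All 15 members of the list of fatty acid uptake and binding had a positive difference, 10 with separated libraries, and the median was 0.27 (0.09 on CD). Without normalization 7 were separated and the median was 0.14, and with median centring 8 and 0.14. Beside *Cd36*, the transporter *Slc27a1* had FPKM of 6.21 and 7.82 against 4.54 and 4.00 (0.61), and *Fabp2*, a fatty acid binding protein, 100.1 and 91.5 against 61.0 and 76.5 (0.52, and 0.34 without f/f-labelled library 1). The lipases, the other side of triglyceride turnover, had a median of 0.15 with 7 separated higher and 1 lower of 15, and 0 at or past 0.5.

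Oxidation of fatty acids showed many small positive differences. In the mitochondrial list 18 of 24 members were separated higher and 1 lower, and the median was 0.20, yet only *Cpt1b* and *Crat* reached 0.5. *Cpt1b*, the muscle form of carnitine palmitoyltransferase 1, had FPKM of 3.72 and 6.52 against 1.72 and 1.92 (1.09 ± 0.29). *Crat*, carnitine acetyltransferase, had 40.8 and 39.6 against 24.3 and 19.4 (0.88). The liver form *Cpt1a*, which controls entry into mitochondria and was added after its values were seen, differed by 0.02. In the peroxisomal list 15 of 25 members were separated higher and 1 lower, 6 were at least 0.5 higher and the median was 0.15. *Abcd2*, a peroxisomal fatty acid transporter, had 8.16 and 5.75 against 3.29 and 3.96 (0.78). *Ehhadh*, the bifunctional enzyme of the pathway, had 133 and 159 against 90.6 and 84.0 (0.77), and *Acaa1b*, a thiolase, 465 and 513 against 345 and 276 (0.68). In each of these enzymes both LKO-labelled libraries were the highest of the 4, with limma adjusted p between 0.328 and 0.45.

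Of 10 Cyp4a omega-hydroxylases 3 were separated and at least 0.5 higher. Among them, *Cyp4a10* had FPKM of 843 and 1014 against 454 and 521 (1.00 ± 0.31), *Cyp4a14* 1079 and 1194 against 817 and 685 (0.68) and *Cyp4a31* 10.3 and 9.46 against 6.06 and 5.58 (0.70). The acyl-CoA thioesterases *Acot1* and *Acot2* stood at 0.72 and 0.77. The members of both families have near-identical copies and their values are uncertain. All 6 members for ketone body synthesis and export were separated higher, with a median of 0.26 (0.12 on CD), and *Slc16a1*, the monocarboxylate transporter MCT1, had 11.4 and 10.6 against 6.43 and 7.37 (0.63). *Pdk4*, which turns off pyruvate dehydrogenase, had 4.10 and 2.81 against 1.24 and 1.24 (0.98 ± 0.31, limma adjusted p = 0.376). The f/f-labelled libraries of *Pdk4* were near the lower limit of the member rule. PPAR receptors and their coregulators as a list had a median of -0.004 with 5 members separated in each direction. Its differences ran from -1.22 to 0.42, and *Lpin1* was the only one at or past 0.5. *Pparg*, which encodes PPARγ and was added after its values were seen, had FPKM of 5.86 and 6.38 against 4.22 and 4.46. Both LKO-labelled values of *Pparg* were thus above both others as deposited.

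Fatty acid synthesis had a median of -0.21 on HFD and 0.20 on CD over 16 members, and the HFD median was -0.05 without LKO-labelled library 2 and -0.08 without f/f-labelled library 2. Of these 6 were separated lower and 2 higher. *Thrsp*, a small nuclear protein that tracks lipogenesis, had FPKM of 33.3 and 23.5 against 47.4 and 123 (-1.406 ± 0.41, and -0.73 without f/f-labelled library 2). *Me1*, malic enzyme, which supplies NADPH and is also a PPAR target, had 77.1 and 46.4 against 36.0 and 32.8 (0.83, and 0.44 without LKO-labelled library 1). The list thus held genes at both ends, with wide spread between the f/f-labelled libraries of *Thrsp* and between the LKO-labelled libraries of *Me1*. Elongases and desaturases had a median of 0.30, with 8 of 15 separated higher and 2 lower, and the median was 0.14 without LKO-labelled library 1 and 0.19 without f/f-labelled library 2. *Elovl5*, an elongase of polyunsaturated fatty acids, had 240 and 186 against 97.4 and 120 (1.00), and *Elovl3*, an elongase of very long chains, 54.8 and 45.9 against 30.3 and 24.3 (0.89). *Fads1*, a desaturase, had 148 and 97.5 against 76.9 and 91.1 (0.54, and 0.21 without LKO-labelled library 1). *Scd1*, the stearoyl-CoA desaturase, was added after its values were seen: with 1562 and 559 against 234 and 762 it had the most positive difference of both lists, 1.34, but its libraries overlapped. In triglyceride and phospholipid synthesis (median 0.13 over 21 members, 0.05 without f/f-labelled library 1), *Gpd1*, which makes glycerol 3-phosphate, had 176 and 181 against 116 and 116 (0.66 ± 0.08, limma adjusted p = 0.106). *Gpd1* and *Lpin1* were the members of this list past 0.5, in opposite directions.

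The INSIG, SCAP and SREBP list showed no common direction beside *Insig2*. Its median over 17 members was -0.04, with 3 separated higher and 4 lower, and *Insig2* was alone at or past 0.5. The paralog *Insig1*, added after its values were seen, had FPKM of 55.1 and 49.2 against 54.2 and 52.4 and a difference of -0.01. In cholesterol synthesis 16 of 21 members were positive but only 3 were separated higher and 2 lower. *Hmgcs1*, the cytosolic HMG-CoA synthase, had FPKM of 97.4 and 53.7 against 36.1 and 33.3 (1.10 ± 0.27, and 0.64 without LKO-labelled library 1). The median of 0.17 moved between -0.21 and 0.32 over the alternatives, and the sign of this list rests on the libraries included. Among 28 genes of lipoproteins and cholesterol transport (median 0.04), *Apoa4*, an apolipoprotein that rises with hepatic fat, had 242 and 123 against 83.6 and 87.7 (1.04, and 0.51 without LKO-labelled library 1). *Pltp*, the phospholipid transfer protein, had 21.9 and 12.8 against 8.26 and 8.34 (0.95, and 0.58 without the same library).

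Bile acid synthesis split between its enzymes. *Cyp7a1*, the rate-limiting enzyme of the classic pathway, had FPKM of 46.2 and 31.1 against 70.7 and 77.6 (-0.94 ± 0.26), and *Cyp7b1*, of the alternative pathway, 37.6 and 47.4 against 96.8 and 56.9 (-0.78, and -0.40 without f/f-labelled library 1). *Cyp2c70*, which makes muricholic acids in mice, had 115 and 115 against 140 and 202 (-0.53, and -0.27 without f/f-labelled library 2). *Cyp8b1*, the 12α-hydroxylase that leads to cholic acid, had 233 and 166 against 158 and 110 (0.61, and 0.33 without f/f-labelled library 2). The 3 lower genes and the higher one each had separated groups, and over all 16 members the median was 0.06. Of the bile acid transporters, *Abcc3*, a basolateral exporter, had 75.3 and 96.5 against 58.1 and 58.5 (0.58), and *Slco1a4* 29.4 and 24.8 against 13.5 and 23.8 (0.58, and 0.19 without f/f-labelled library 1).

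Cytochromes P450 of families 1 to 3 had a median of 0.11 over 38 listed members, with 12 separated higher and 6 lower, and it was 0.04 without LKO-labelled library 2 and 0.06 without normalization. The 4 members at least 0.5 higher included 3 of the Cyp3a family, drug and steroid hydroxylases, with *Cyp3a11* at FPKM of 522 and 431 against 214 and 298 (0.96 ± 0.19), *Cyp3a59* at 19.0 and 14.4 against 5.91 and 7.5 (1.22) and *Cyp3a25* at 326 and 318 against 211 and 220 (0.64). The other was *Cyp2c38*, with 57.2 and 44.5 against 21.5 and 31.8 (0.96). The LKO-labelled libraries were the 2 highest for each, although reads shared within the Cyp3a and Cyp2c families make the split between copies uncertain. Phase II enzymes had a median of 0.06 over 43 members, and *Gstp1*, a male-biased glutathione transferase with close copies, had 512 and 482 against 990 and 744 (-0.75). *Ugt1a9* and *Gstm4* stood at 0.65 and 0.61, and *Ugt1a9* at 0.32 without f/f-labelled library 1. Retinoid genes had a median of 0.00 over 25 members. The similar enzymes *Rdh16*, with 47.8 and 49.7 against 20.9 and 32.4 (0.91), and *Rdh16f2*, with 48.4 and 57.6 against 80.3 and 78.2 (-0.57), lay on opposite sides. *Cyp26a1*, which degrades retinoic acid, had 1.57 and 1.26 against 3.52 and 2.36 (-0.71).

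Genes of the growth hormone and STAT5 axis, which in males follow pulses of growth hormone, had a median of -0.26 (0.04 on CD). Of 22 members 13 were separated lower, 6 of them at least 0.5 lower, and 5 were separated higher. Among those 5 only *Elovl3*, given above, was at least 0.5 higher (0.89). *Socs2*, a feedback inhibitor of the axis, had FPKM of 1.90 and 2.24 against 4.50 and 12.9 (-1.51 ± 0.50, and -0.83 without f/f-labelled library 2). *Onecut1*, which encodes HNF6, had 3.92 and 5.99 against 6.79 and 28.5 (-1.36, and -0.39 without f/f-labelled library 2). For both, the second f/f-labelled library stood far above the first. The complement genes *C8b* and *C6* were lower with less spread, at 55.8 and 69.8 against 106 and 102 (-0.68) and at 44.0 and 47.6 against 82.1 and 61.6 (-0.61, and -0.40 without f/f-labelled library 1). Major urinary proteins, secreted pheromone carriers, had a median of -0.28 over 18 members with 4 separated, all lower, and the median was 0.03 without f/f-labelled library 1 and -0.71 without f/f-labelled library 2. *Mup20* had 2858 and 2172 against 5363 and 3767 (-0.60, and -0.34 without LKO-labelled library 2). *Mup12* had 104 and 178 against 365 and 195 (-0.95, and -0.50 without f/f-labelled library 1). *Mup16* had 22.2 and 52.9 against 97.7 and 137 (-1.71, and -1.11 without LKO-labelled library 1). Mup genes are near-identical copies, and the split of their reads is uncertain.

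Among secreted regulators of metabolism, *Fgf21*, a fasting hormone, had FPKM of 5.14 and 3.05 against 2.54 and 1.58 (0.73 ± 0.24, and 0.43 without LKO-labelled library 1). *Gdf15*, a stress hormone, had 4.63 and 3.71 against 3.68 and 1.76 (0.54, and 0.16 without f/f-labelled library 2). *Igfbp1*, an insulin-like growth factor binding protein, had 17.0 and 15.5 against 15.2 and 8.20 (0.51, and 0.10 without f/f-labelled library 2). Gluconeogenesis and glycogen genes had a median of -0.02 over 24 members, with 6 separated lower, 1 higher and 0 at or past 0.5. Insulin signaling genes together with hepatokines had a median of -0.01 over 26 members.

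Growth arrest genes were higher in places. Of 23 listed p53 targets and related genes 13 were separated higher and 2 lower, and the median was 0.16 (0.03 on CD), or 0.07 without f/f-labelled library 1. *Cdkn1a*, which encodes the cyclin-dependent kinase inhibitor p21, had FPKM of 6.41 and 8.89 against 2.76 and 1.63 (1.46 ± 0.22, limma adjusted p = 0.144). *Ndrg1* had 5.91 and 5.12 against 2.74 and 3.33 (0.70), and *Trp53inp1*, a p53-induced nuclear protein, 20.1 and 19.98 against 16.02 and 11.1 (0.57, and 0.33 without f/f-labelled library 2). *Fas*, a death receptor, had 10.4 and 11.6 against 6.26 and 9.13 (0.50, and 0.25 without f/f-labelled library 1). Both LKO-labelled libraries were above both others in these 4. Of the cell cycle genes only 14 of 36 were expressed at the member level, with a median of 0.02. *Spc25*, a kinetochore protein, had 4.85 and 3.65 against 2.70 and 2.12 (0.63). *Hspb1*, a small heat shock protein, had 5.71 and 8.87 against 4.58 and 3.30 (0.74, and 0.47 without LKO-labelled library 2), and *Egr1*, an immediate early factor, 4.07 and 5.68 against 3.75 and 1.64 (0.73, and 0.31 without f/f-labelled library 2).

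Housekeeping groups moved little in size. Cytosolic ribosomal proteins, with 78 members, had a median of -0.10, 49 separated lower and 1 higher, all within -0.34 and 0.08. Their median on CD was 0.02. Oxidative phosphorylation subunits had a median of 0.02 over 76 members with 14 separated higher and 6 lower. Without normalization 13 of them were separated higher and 18 lower, and with median centring 9 and 12. Proteasome subunits had a median of -0.02 over 31 members. NRF2 and antioxidant genes had a median of 0.16 over 30 members, 15 of them separated higher and 3 lower, with 0 at or past 0.5. *Fth1*, ferritin heavy chain and the most abundant of them, had FPKM of 1853 and 1800 against 1597 and 1771 (0.36, and 0.12 without normalization).

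Acute-phase genes had a median of -0.11 over 31 members (0.19 on CD), with 5 separated higher and 7 lower. That median ran from -0.25 to 0.06 over the alternatives. Of 53 members for amino acid catabolism, 5 were separated higher and 19 lower. *Got1*, a transaminase, had FPKM of 48.0 and 52.6 against 75.8 and 101 (-0.76 ± 0.19), and *Sds*, serine dehydratase, 54.2 and 65.8 against 92.2 and 107 (-0.69 ± 0.10, limma adjusted p = 0.144). *Gldc*, of glycine cleavage, had 54.2 and 47.6 against 31.1 and 35.1 (0.65), and the whole list of 53 members had a median of -0.04. *Mt2*, a metallothionein, had 105 and 137 against 206 and 240 (-0.87), and *F11*, coagulation factor XI, 25.2 and 27.9 against 45.5 and 37.1 (-0.60). *Apcs*, serum amyloid P, had 30.5 and 25.7 against 35.1 and 62.8 (-0.71, and -0.29 without f/f-labelled library 2). *Hamp2*, a hepcidin with a close copy and uncertain value, had 263 and 184 against 61.8 and 163 (1.20, and 0.51 without f/f-labelled library 1). *Car3*, a carbonic anhydrase abundant in hepatocytes of male mice and in adipocytes, had 1412 and 1746 against 1054 and 825 (0.93 ± 0.12, limma adjusted p = 0.106).

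Markers of other cell types were read beside these values. All 13 macrophage and Kupffer cell members were positive, with a median of 0.38 (-0.25 on CD) and 6 separated higher. That median was 0.13 without LKO-labelled library 1 and 0.60 without LKO-labelled library 2. The summed FPKM of their list was 178 and 122 in the LKO-labelled and 123 and 105 in the f/f-labelled libraries, and the groups overlapped. *Cd68*, a lysosomal protein of macrophages, had 7.91 and 7.34 against 5.77 and 4.27 (0.54), and 7 of the 20 listed markers were below 1 in all 4 libraries, among them *Trem2* and *Gpnmb*. *Cd53*, a leukocyte tetraspanin, had 2.95 and 2.52 against 1.57 and 1.63 (0.53), and *Cxcl10*, an interferon-induced chemokine, 3.38 and 3.22 against 2.58 and 1.53 (0.52, and 0.29 without f/f-labelled library 2). *H2-Q10*, a secreted class I molecule of liver, had 827 and 711 against 509 and 611 (0.53). The leukocyte list summed to 30.2 and 22.4 against 19.1 and 23.4, with *Ly6g* at 0. The stellate cell list summed to 131 and 103 against 125 and 100, most of it *Dcn* (71.3 and 54.6 against 72.2 and 52.5), which overlapped. Of its 11 members 5 were separated higher and 2 lower. Their median was 0.19 (-0.15 on CD), or 0.04 without f/f-labelled library 2. The endothelial list summed to 152 and 120 against 143 and 137, with 0 of 16 members separated higher and 3 lower. The cholangiocyte list summed to 138 and 159 against 128 and 137. Most of it was *Krt8* (54.1 and 66.6 against 50.2 and 53.8) and *Krt18* (44.1 and 55.2 against 47.7 and 44.2), which overlapped. Of its 6 members 4 were separated higher and 0 lower. *Krt23*, a keratin, and *Anxa2*, an annexin, differed by 0.84 and 0.65, while *Spp1* overlapped with 19.1 and 16.6 against 15.9 and 23.8. *Krt7*, *Krt19* and *Epcam* were below 1 in all 4 libraries.

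Adipocyte markers need their own values because *Cidec*, *Plin4* and *Car3* are listed among them. The list summed to 1500 and 1820 against 1130 and 982, nearly all of it *Car3*. Defining markers were near 0, with *Adipoq* listed at 0 in both LKO-labelled libraries and 0.377 and 0.212 in the f/f-labelled libraries, and *Lep* at 0 in 3 of the 4 libraries. *Cfd*, adipsin, is not a member, with 5.45 and 5.29 against 0.488 and 1.87. Erythrocyte markers summed to 198 and 121 against 65.8 and 228 and so differed most within the f/f-labelled group. Pancreatic and muscle markers summed to below 1 in each library, and 8 of 13 were at 0 in all 4. The part of these cells in the differences above was not tested.

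**Figure D4:**
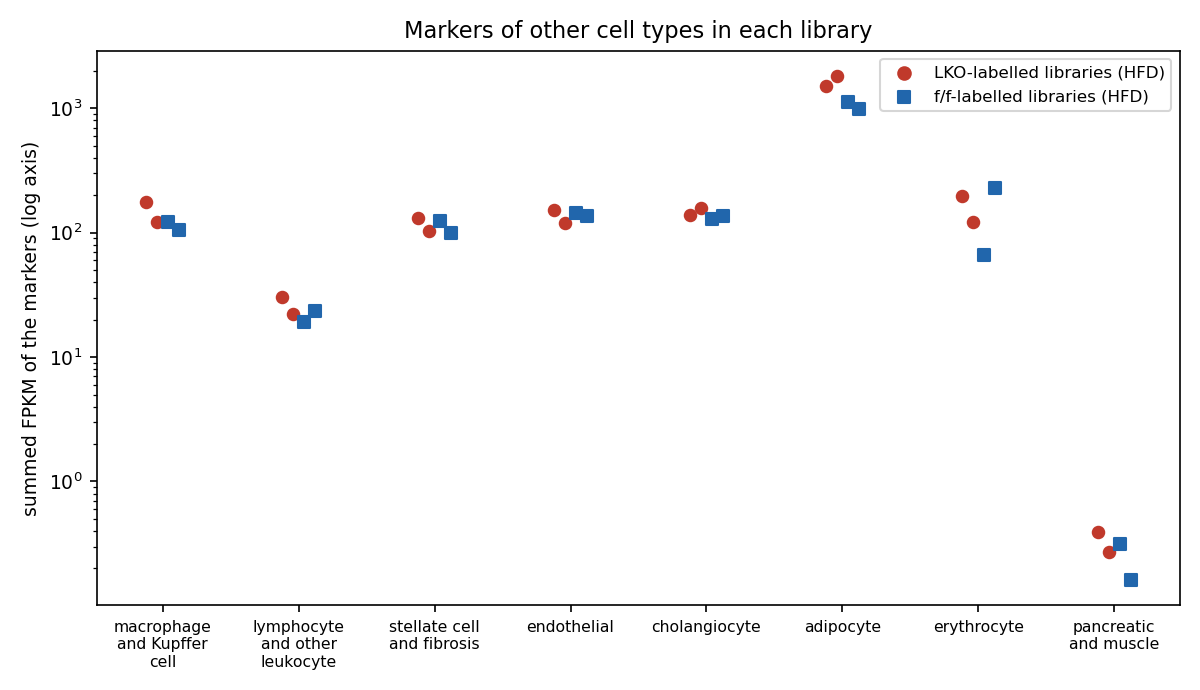
Summed FPKM of marker lists (vertical log axis) in each HFD library, with red circles for LKO-labelled and blue squares for f/f-labelled libraries. The groups overlap for leukocyte, stellate, endothelial and erythrocyte lists. They stand apart for the adipocyte list (1500 and 1820 against 1130 and 982), nearly all *Car3*, and narrowly for the cholangiocyte list, mostly *Krt8* and *Krt18*. Macrophage sums overlap by a small margin (178 and 122 against 123 and 105).

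Hepatocyte markers were abundant in all libraries, with *Ttr*, transthyretin, at FPKM of 4302 and 4200 against 4196 and 4034 and *Apoa1* at 4407 and 4740 against 4869 and 4574. *Alb*, albumin, was listed at 0 in 3 of the 4 HFD libraries and at 30680 in f/f-labelled library 1, and it is not a member. *Serpina3k*, an abundant serpin of liver, was listed at 0 in all 4, and 166 genes with FPKM above 1 in an HFD library were listed at 0 in another. Whether these zeros are failed estimates was not tested. The most abundant genes also depend on the normalization, and *Cyp2e1*, at 5512 and 6770 against 6332 and 6173, had a difference of 0.33 with quantile normalization and -0.03 without it.

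The CD libraries show how far the HFD differences were shared. Both contrasts have their own 2 libraries per group, but 1 fit and 1 estimate of spread serve both. Of the 160 genes at least 0.5 higher on HFD, 82 were separated in the same direction on CD, 36 of them also at or past 0.5, and 7 were separated the other way. Over all members, the shares separated higher and separated at least 0.5 higher on CD were 21.6% and 1.59%. The median of the 160 genes was 0.65 on HFD and 0.25 on CD. Of the 101 lower genes 38 were separated lower on CD, 16 at or past 0.5, and 13 were separated higher, with medians of -0.68 on HFD and -0.15 on CD. Over all members 22.6% were separated lower on CD and 1.35% were at least 0.5 lower. Opposite separation on the diets was met by 693 members (6.86%). *Cidec* (1.5 on CD), *Insig2* (0.65) and *Cyp7a1* (-1.23) lay on the same side on both diets. *Plin4* (-0.23), *Elovl5* (-0.02), *Serpinb1a* (0.07), *Thrsp* (-0.001), *Hsd3b5* (-0.10) and *Socs2* (0.07) overlapped on CD. The difference between the diets was tested in limma as an interaction, and its adjusted p was under 0.05 for 0 of the 10107 members, with an unadjusted p under 0.05 for 878. The lowest adjusted p, 0.11 in limma, belonged to *Angptl8*, a gene named for that value alone. No member was therefore shown to differ between the diets.

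**Figure D5:**
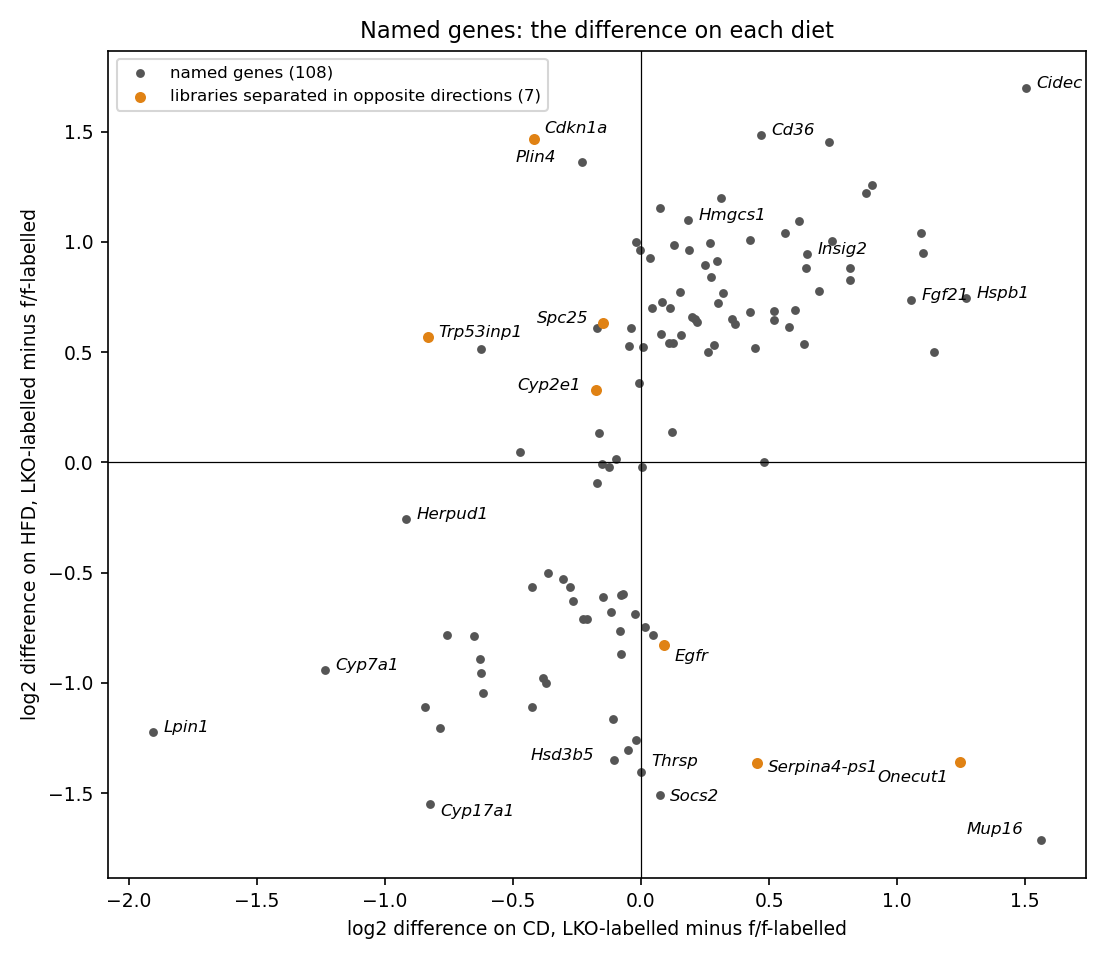
Log2 differences (LKO-labelled minus f/f-labelled) on CD (horizontal axis) and HFD (vertical axis) for 115 named genes, with *Mup-ps19* (-4.17 on HFD, -0.96 on CD) left off for scale. Orange points mark the 7 genes whose libraries were separated in opposite directions, among them *Cdkn1a* and *Egfr*.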

How the data were processed

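Polyadenylated RNA from liver was sequenced on an Illumina platform with TruSeq v2 libraries, and the submitters' processing notes name cutadapt 1.0, TopHat2 2.0.7, Cufflinks and GRCm38, of which no Cufflinks version is given in the sources used here. The authors deposited FPKM per gene from Cufflinks for each library. The deposited FPKM hold no counts, so sequencing depth is unknown here and no counting interval is given. Cufflinks divides reads between similar copies, and with no statement of strand, overlapping antisense genes cannot be told apart. The authors also report a permutation procedure over regroupings of libraries, which was not used.

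Groups came from the GEO labels. Gene identifiers were matched to GENCODE M21 (36425 of 38283). Genes with FPKM above 1 in at least 1 of 8 libraries (11634) were tested with limma 3.58.1 in R 4.3.3, on quantile-normalized log2(FPKM + 1) in 1 fit over the 4 groups with a mean-variance trend, and p-values were adjusted over all of them by Benjamini-Hochberg. The limma script was tested on simulated data. Named genes were *Rora*, genes with an adjusted p under 0.05, the 15 highest and 15 lowest separated genes with a symbol and an unadjusted p under 0.05, and per list up to 4 separated genes with the largest difference of at least 0.5, or else the most abundant member; a few genes that this rule names are not reported here. Members and lists were chosen with earlier results of these data known. Alternatives were no normalization, median centring, a pseudocount of 0.1, other filters on FPKM, no trend, the HFD libraries alone, a replicate block and leaving out each library.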

Additional observations from a re-analysis of the deposited data

Results flagged for a closer look

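The LKO-labelled and f/f-labelled libraries of 7 of 116 named genes were separated in opposite directions on HFD and CD. This share is no larger than that over all members, 693 of 10107 (6.86%). The difference between diets was tested as an interaction in limma. It passed an adjusted p of 0.05 for none of the 7. Genes were looked for in this way among 116, and each value below is the HFD minus the CD log2 difference.

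*Cdkn1a*, which encodes p21, was higher on HFD and lower on CD, where FPKM was 1.75 and 1.04 in the LKO-labelled and 2.24 and 2.03 in the f/f-labelled libraries, an interaction of 1.88 (limma adjusted p = 0.354). *Trp53inp1*, another p53-induced gene, had 24.4 and 22.8 against 42.7 and 44.4 on CD and an interaction of 1.40 (limma adjusted p = 0.307). *Spc25*, of the kinetochore, had 3.33 and 3.82 against 3.80 and 4.25 on CD, which overlap as deposited, and an interaction of 0.78 (limma adjusted p = 0.558).

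*Egfr* had 108 and 110 against 98.3 and 104 on CD and an interaction of -0.92 (limma adjusted p = 0.229). *Onecut1*, which encodes HNF6, had 12 and 13.3 against 5.39 and 4.17 on CD and an interaction of -2.60 (limma adjusted p = 0.558). *Serpina4-ps1*, a pseudogene whose reads are shared with close copies, had 41.2 and 64.5 against 35.0 and 39.7 on CD and an interaction of -1.82 (limma adjusted p = 0.517). *Cyp2e1*, an abundant P450, had 3875 and 4102 against 4285 and 4680 on CD and an interaction of 0.50 (limma adjusted p = 0.558), while its HFD difference was -0.03 without normalization and with median centring.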

How the results depend on the processing

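The number of members with a limma adjusted p under 0.05 was 2, and 1 without normalization (*Insig2*), 5 when only genes above 1 in all 4 HFD libraries were tested (adding *Cela1*, *Egfr* and *Upp2*), 0 without the trend, 0 with the HFD libraries alone, and 0 to 5 with 1 library left out, where the remaining library was assumed to vary like the other groups. Without LKO-labelled HFD library 2 the 5 were *Hmgcs1*, *Lpin1*, *Me1*, *Rnf125* and *Upp2*. Unadjusted p under 0.05 was met by 1025 members, 942 without the trend and 1022 with the HFD libraries alone. Median centring, the pseudocount of 0.1 and the wider filter gave 3, adding *Egfr*. The replicate block gave 4 (*Clstn3*, *Egfr*, *Insig2*, *Lpin1*), but same-numbered libraries come from different mice and their deviations correlated at r = 0.0228 (HFD) and 0.0331 (CD) over members, and 0.0878 and 0.145 over every gene tested, so the numbers were not taken to pair them.

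The pseudocount of 0.1 moved the count of higher genes from 160 to 235 and of lower genes from 101 to 166. With 1 library left out the lower count ranged from 100 to 197, the count of higher genes from 157 to 251 and the count of separated genes from 4367 to 7349, which fewer libraries raise by construction. Of the genes at or past 0.5, 61.3% were higher, and 53.2% without f/f-labelled HFD library 1. The interaction count was 0 and ranged from 0 to 3 with 1 library left out; it could not be fitted with the HFD libraries alone.

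Direction was kept in all alternatives by 107 of 116 named genes. The other 9 reversed. *Rora* was at -0.009 without normalization and -0.002 with median centring, and *Cyp2e1* at -0.033 and -0.026. With 1 library left out the range was -0.032 to 0.06 for *Rora*, -0.093 to 0.356 for *Nr1d1*, -0.055 to 0.009 for *Rps2*, -0.115 to 0.074 for *Psma3*, -0.302 to 0.133 for *Ass1*, -0.177 to 0.273 for *Dcn*, -0.165 to 0.15 for *Clec4g* and -0.778 to 1.775 for *Hbb-bs*. The causes were not tested. The sign of the median was kept in all alternatives by 34 of 57 lists. Depth cannot be read from FPKM, and what it limits is unknown.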
